A study of Mus musculus with 6 samples.

Results

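The transcripts of 10 chemokine ligands were followed in liver endothelial cells (ECs), namely Ccl2, Ccl7, Cxcl1, Cxcl2, Cxcl9, Cxcl10, Cx3cl1, Cxcl16, Cxcl12 and Cxcl13. They were taken as a fixed list of gene symbols, and all 10 were found among the 24421 genes of the count table and among the 14612 genes that passed the filter on low counts (0.5 CPM, that is, counts scaled to library size, or more in 1 sample or more). Chemokines are small secreted proteins that guide leukocytes along gradients, and ECs display them on the vessel wall, where they bind heparan sulfate and switch rolling leukocytes to firm arrest. Inflammatory chemokines are switched on in ECs by TNF, interleukin-1 and interferon gamma, whereas homeostatic chemokines position lymphocytes and progenitors in unstressed tissue. In the liver sinusoid such ligands are known for recruiting monocytes, neutrophils and T cells and for holding natural killer T cells in place.

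The cells were CD31+CD45- liver cells, sorted from wild-type C57BL/6J mice (female, according to the methods) to ask how the transcriptome of liver ECs changes with age. The young group held 3 samples of 10-week-old animals, and the aged group 1 sample each at 127, 131 and 136 weeks, with 50000 cells per library. No treatment or transgene was used, animals with visible tumors or an enlarged liver or spleen were left out by the study without pathology, and the sources used here do not say whether a library came from 1 animal, so that p-values measure the spread between these samples. Total counts ran from 23001556 to 31651817 per sample. Counts on Lars2 and Rn45s, symbols that collect ribosomal RNA reads, took a low share of the total in young replicate 3 (1.29%) and the 127-week library (0.96%) and ranged from 4.68% to 5.53% in the other 4, and values within these library clusters are given where they bear on a ligand. The sort was checked against markers. Pecam1, which encodes CD31, had a CPM between 1366 and 1635 in each sample, while Stab2, a scavenger receptor of sinusoidal ECs, was at 2901, 3198 and 3021 CPM in the young samples and at 504, 1759 and 542 CPM at 127, 131 and 136 weeks. Ptprc, which encodes the pan-leukocyte protein CD45, was between 1.17 and 1.70 CPM in the young samples and at 7.56, 1.28 and 25.6 CPM at 127, 131 and 136 weeks. In such bulk samples more cells of a type and more RNA per cell cannot be told apart.

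Most of the ligands were higher in aged than in young liver ECs. Of the 10 ligands 9 had a positive log2 fold change (51.1% of all genes tested did), 7 had one above 1 (11.0% of all genes tested), and the median was 1.72 against 0.0098 over all genes tested. With edgeR's quasi-likelihood test and Benjamini-Hochberg adjustment over all genes tested, 0 of the 10 ligands passed an adjusted p of 0.05 with a log2 fold change beyond 1, as did 0% of all genes in either direction (smallest adjusted p 0.0735). Without adjustment, at p below 0.05, the same test counted 7 ligands as higher, namely Ccl2, Ccl7, Cxcl1, Cxcl2, Cxcl10, Cx3cl1 and Cxcl13, against 5.43% of all genes, and 0 ligands as lower, against 1.19%. DESeq2's Wald test called 6 ligands higher at an adjusted p of 0.05, the same genes except Cxcl13, to which it gave no adjusted p, and 0 lower, against 2.77% and 0.540% of the genes with an adjusted p. In 4 ligands, Ccl2, Cxcl1, Cxcl2 and Cx3cl1, each aged sample exceeded each young sample, against 9.62% of all genes tested, and in 0 ligands the reverse held, against 8.33%. The aged samples differed among themselves. The 136-week sample had the highest CPM of all 6 samples for 9 ligands (25.7% of all genes tested), and the 131-week sample was the lowest aged sample for 9 ligands. The exception in each case was Cxcl16, and the share of all genes with the lowest aged value at 131 weeks was not counted. Without the 136-week sample 5 ligands were still past both limits without adjustment, against 2.75% of all genes, and Ccl2, Ccl7, Cxcl1, Cxcl2 and Cx3cl1 were those 5. All 7 ligands were past these limits without the 131-week sample, against 7.71% of all genes, and also with the library cluster as a term in the fit, against 5.24%. Without the 131-week sample the groups were separate for 8 ligands, 7 of them higher and 1 lower, where 34.5% of all genes were separate.

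**Figure D1:**
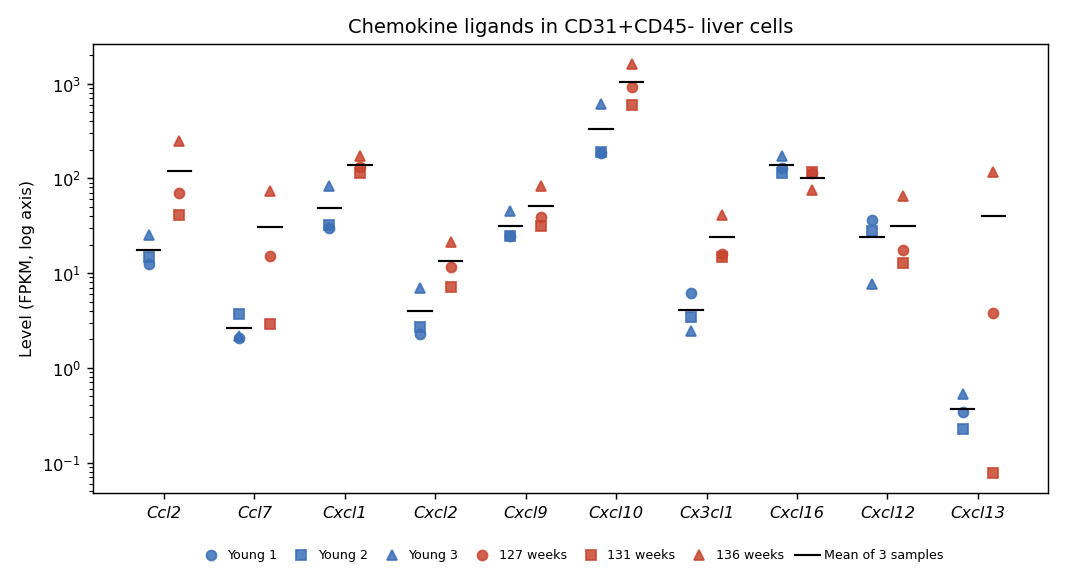
Level of each ligand in FPKM (fragments scaled to transcript length and library size, log axis) in the 3 young samples (blue) and the 3 aged samples (red), with the mean of each group as a black line. Cxcl10 was the most abundant ligand at both ages, and Cxcl13 ranged from 0.0783 to 116 FPKM among the aged samples.

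The levels of different ligands were compared in FPKM, which corrects for transcript length. In young ECs Cxcl10 stood at 329 ± 245 FPKM (SD, n = 3), followed by Cxcl16 at 138 ± 29.1, Cxcl1 at 48.1 ± 29.9, Cxcl9 at 31.5 ± 11.7, Cxcl12 at 23.9 ± 14.8 and Ccl2 at 17.5 ± 6.77 FPKM. The sparse ligands were Cx3cl1 at 4.03 ± 1.93, Cxcl2 at 3.96 ± 2.55, Ccl7 at 2.64 ± 0.903 and Cxcl13 at 0.363 ± 0.150 FPKM. The ranges of Cxcl10 and Cxcl16, of Cxcl16 and Cxcl1, of Ccl2 and Cx3cl1, and of Ccl7 and Cxcl13 did not overlap, while those of all other neighbours in this order did. In aged ECs Cxcl10 again led, at 1035 ± 512 FPKM (SD, n = 3), and did not overlap with the ligand below it. Cxcl1 followed at 139 ± 31.3, Ccl2 at 119 ± 112, Cxcl16 at 102 ± 23.1, Cxcl9 at 51.1 ± 27.5, Cxcl13 at 40.0 ± 66.0, Cxcl12 at 31.6 ± 28.6, Ccl7 at 30.4 ± 37.6, Cx3cl1 at 24.0 ± 15.1 and Cxcl2 at 13.4 ± 7.33 FPKM, and here the ranges of all neighbours from Cxcl1 downwards overlapped. By these means Cxcl16 went from rank 2 in young to rank 4 in aged ECs, and Ccl2 from rank 6 to rank 3. The aged order of this pair rested on the 136-week sample, with Ccl2 at 247 and Cxcl16 at 74.9 FPKM. At 127 and 131 weeks Cxcl16 was the higher, at 113 and 117 FPKM against 69.1 and 40.85 FPKM for Ccl2. Cxcl1 exceeded Cxcl16 at 127 and 136 weeks but not at 131 weeks.

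The summed FPKM of the 10 ligands was 428, 414 and 956 in the young samples and 1336, 929 and 2489 at 127, 131 and 136 weeks, so that young replicate 3 lay above the 131-week sample. Cxcl10 made up 43.1%, 45.8% and 64.1% of this sum in the young samples and between 63.5% and 68.9% in the aged samples. Cxcl16 made up 30.2%, 27.7% and 17.9% in the young samples but 8.46%, 12.5% and 3.01% at 127, 131 and 136 weeks, and these groups did not overlap. Ccl2 made up 2.64% to 3.60% of the sum in young and 4.40% to 9.92% in aged samples, also without overlap.

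**Figure D2:**
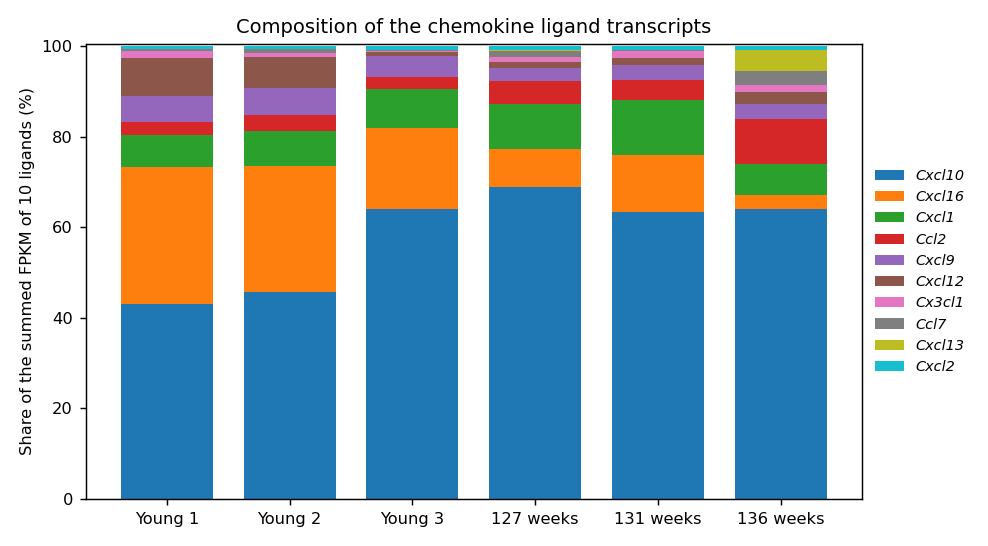
Share of each ligand in the summed FPKM of the 10 ligands (percent, stacked to 100) in each sample. The Cxcl16 segment covers 17.9% to 30.2% in the young samples and 3.01% to 12.5% in the aged samples, and Cxcl10 is the widest segment in all 6.

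Ccl2 and Ccl7 are monocyte attractants that act through CCR2, the receptor that brings Ly6C-high monocytes out of the bone marrow. Their genes are neighbours on chromosome 11 of mm9, Ccl2 at chr11:81849073-81850955 and Ccl7 at chr11:81859214-81861027, both with 3 exons on the plus strand and with 8258 bases between them. Ccl2 gave 7.89, 9.70 and 15.7 CPM in young replicates 1 to 3 against 42.9, 25.9 and 155 CPM at 127, 131 and 136 weeks. Each aged sample thus lay above each young sample, and the 136-week sample was far above the other aged samples. The log2 fold change was 2.75 (standard error 0.67, edgeR, adjusted p = 0.237), and it was 1.63 without the 136-week sample. Ccl7 was much sparser, at 1.27, 2.26 and 1.29 CPM in the young samples and at 9.35, 1.79 and 45.3 CPM at 127, 131 and 136 weeks. Here the 131-week sample lay inside the young range, so the groups overlapped, and the log2 fold change of 3.56 (standard error 1.05, edgeR, adjusted p = 0.277) became 1.803 without the 136-week sample. The 127- and 136-week samples, which held the most Ccl7, were also those with the most Ptprc and with 103 and 327 CPM of Lyz2, a lysozyme gene of macrophages and neutrophils, against 15.2 to 31.0 CPM in the young samples and 19.4 CPM at 131 weeks. Lyz2 was picked after its values were seen from 12 macrophage and Kupffer cell markers, 8 of them higher and 4 lower in aged samples. The part of leukocyte RNA in the Ccl2 and Ccl7 values was not tested.

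Cxcl1 and Cxcl2 attract neutrophils through CXCR2, and both are immediate targets of NF-kB. Both lie on chromosome 5 of mm9, at chr5:91320267-91322141 and chr5:91332897-91334935, with 10755 bases between them and 4 exons each on the plus strand. Cxcl1 gave 23.6, 24.95 and 63.9 CPM in young replicates 1 to 3 against 102, 88.2 and 135 CPM at 127, 131 and 136 weeks. Cxcl2 gave 2.08, 2.75 and 6.75 CPM in young replicates 1 to 3 against 12.8, 6.81 and 20.4 CPM at 127, 131 and 136 weeks. For both genes the aged samples lay above the young samples, but young replicate 3 stood well above the other young samples and, for Cxcl2, only just below the 131-week sample. The log2 fold changes were 1.53 for Cxcl1 (standard error 0.41, edgeR, adjusted p = 0.253) and 1.78 for Cxcl2 (standard error 0.56, edgeR, adjusted p = 0.299). Among the 4 libraries rich in Lars2 and Rn45s the difference of log2(CPM + 1) was 2.13 for Cxcl1 and 1.93 for Cxcl2, and between young replicate 3 and the 127-week sample it was 0.66 and 0.83. Of the 75-base stretches of Cxcl2 transcripts 1.97% also occur in Cxcl3, which had 0 counts in all samples.

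The promoters of these neighbours are shown because both held close copies of the NF-kB motif within 100 bases of the start. The 250 bases before the transcription start were taken from RefSeq on GRCm38.p6, at chr5:90890995-90891244 for Cxcl1 and chr5:90903649-90903898 for Cxcl2, both on the plus strand. Capitals mark matches to the NF-kB motif (3 G, then any 3 bases, then TTCC) on either strand.
Cxcl1: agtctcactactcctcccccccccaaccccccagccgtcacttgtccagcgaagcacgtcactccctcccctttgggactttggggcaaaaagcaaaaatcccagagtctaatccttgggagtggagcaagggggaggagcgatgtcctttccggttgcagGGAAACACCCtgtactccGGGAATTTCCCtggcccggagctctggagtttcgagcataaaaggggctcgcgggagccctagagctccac
Cxcl2: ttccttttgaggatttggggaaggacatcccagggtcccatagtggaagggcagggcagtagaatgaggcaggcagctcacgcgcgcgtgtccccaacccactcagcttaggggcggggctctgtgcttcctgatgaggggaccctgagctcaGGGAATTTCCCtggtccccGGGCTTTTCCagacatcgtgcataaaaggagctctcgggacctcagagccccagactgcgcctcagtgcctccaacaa
The run GGGAATTTCCC is a match on both strands, shifted by 1 base, and begins 71 bases before the start in Cxcl1 and 97 bases before it in Cxcl2. A further match begins at 89 bases in Cxcl1 and at 78 bases in Cxcl2. The motif was found in 4.65% of the 32841 promoters of this length in the RefSeq table, and in 3 of the 7 ligands with an entry there, Cxcl1, Cxcl2 and Cxcl10. Cx3cl1, Cxcl9, Cxcl12 and Cxcl13 had an entry without a match, and Ccl2, Ccl7 and Cxcl16 were not searched. A match is a stretch of letters and does not show that a factor was bound.

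Cxcl9 and Cxcl10 attract activated T cells and natural killer cells through CXCR3, and Cxcl9 depends more strictly on interferon gamma than Cxcl10, which type I interferon and NF-kB also induce. Both lie on the minus strand of chromosome 5 of mm9, at chr5:92750357-92757105 and chr5:92775664-92777915, with 18558 bases between them. Cxcl10 gave 173, 178 and 566 CPM in young replicates 1 to 3 against 851, 550.2 and 1484 CPM at 127, 131 and 136 weeks. Young replicate 3 exceeded the 131-week sample, so the groups overlapped, and the log2 fold change was 1.65 (standard error 0.56, edgeR, adjusted p = 0.326). The difference of log2(CPM + 1) was 2.36 among the 4 libraries rich in Lars2 and Rn45s and 0.59 between the other 2. Cxcl9 gave 69.8, 70.4 and 127 CPM in young replicates 1 to 3 against 113, 90.8 and 234 CPM at 127, 131 and 136 weeks. Only the 136-week sample lay above the young range, and the log2 fold change of 0.71 (standard error 0.40, edgeR, adjusted p = 0.522) became 0.20 without it. Between young replicate 3 and the 127-week sample the difference was -0.17 on the log2(CPM + 1) scale, against 1.05 in the other cluster. Art3, which overlaps Cxcl10 on the opposite strand, ran from 60.0 to 74.3 CPM in young and from 34.8 to 44.6 CPM in aged ECs, the opposite direction.

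The ratio between the 2 CXCR3 ligands separated the ages, while each gene alone overlapped, a comparison chosen after the values were seen. Cxcl10 was 7.50, 7.63 and 13.6 times as abundant as Cxcl9 in FPKM in the young samples and 23.5, 18.7 and 19.3 times at 127, 131 and 136 weeks. There was no overlap, and this gave the smallest p that 3 samples against 3 allow (two-sided exact permutation test on log2 ratios, p = 0.1, unadjusted for the 3 ratios computed). The ratio was also higher in the aged samples within each library cluster. A ratio within a sample does not depend on the scaling of its library. The ratio of Ccl2 to Ccl7 was 6.05, 4.05 and 11.6 in the young samples and 4.59, 14.1 and 3.37 in the aged samples (two-sided exact permutation test, p = 0.9). The ratio of Cxcl1 to Cxcl2 was 13.1, 11.9 and 11.98 in the young samples and 11.4, 15.7 and 8.09 in the aged samples (two-sided exact permutation test, p = 0.7). Both of these overlapped between the ages, with a wider spread among the aged samples for Cxcl1 to Cxcl2 (SD 3.82 against 0.671, n = 3 each).

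**Figure D3:**
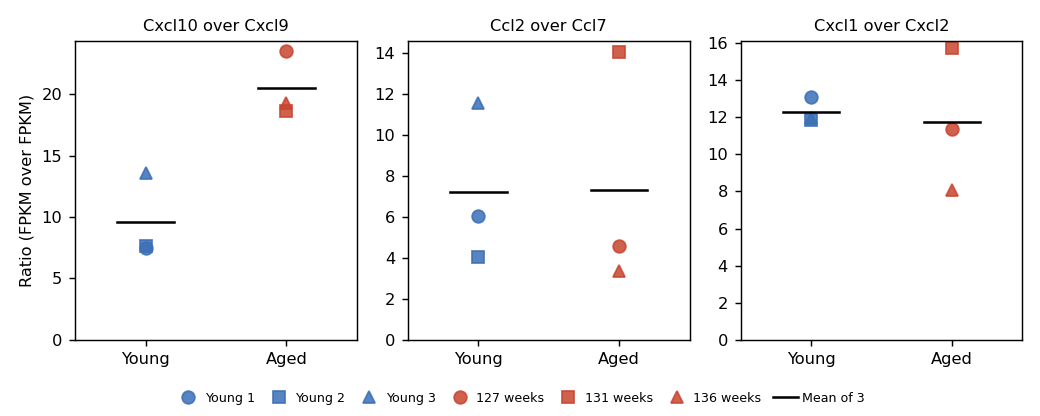
Ratio of FPKM within each sample for the 3 pairs of neighbouring genes, with the mean of each group as a black line and axes that start at 0. The aged samples lie between 18.7 and 23.5 for Cxcl10 over Cxcl9, above the young samples, while the ages overlap in the other panels.

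The promoters of Cxcl10 and Cxcl9 are shown side by side because the ratio above compares this pair of neighbours. They are the 250 bases before the start on the minus strand of GRCm38.p6, at chr5:92348890-92349139 for Cxcl10 and chr5:92328080-92328329 for Cxcl9 (RefSeq). Capitals mark the same NF-kB motif and the interferon-stimulated response element motif (the letters GAAA on each side of any 2 bases) on either strand.
Cxcl10: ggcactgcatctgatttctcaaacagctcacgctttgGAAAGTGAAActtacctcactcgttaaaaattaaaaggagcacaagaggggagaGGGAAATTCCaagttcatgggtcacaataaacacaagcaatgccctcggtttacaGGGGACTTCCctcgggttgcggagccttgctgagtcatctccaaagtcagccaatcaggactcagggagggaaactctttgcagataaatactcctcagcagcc
Cxcl9: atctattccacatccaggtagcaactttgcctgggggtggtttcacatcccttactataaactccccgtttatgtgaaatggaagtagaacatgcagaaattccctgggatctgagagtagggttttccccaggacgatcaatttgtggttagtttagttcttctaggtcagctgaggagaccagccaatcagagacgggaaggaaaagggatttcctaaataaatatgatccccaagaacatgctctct
In Cxcl10 the response element begins 213 bases before the start, and NF-kB matches begin at 159 and 104 bases. The 2 motifs do not overlap there, and 0.11% of the promoters in the table held both, while 2.98% held the response element. In Cxcl9 neither string of letters was found in this window.

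Cx3cl1 and Cxcl16 are the ligands made as transmembrane proteins, with the chemokine domain on a mucin stalk, and they can be shed by ADAM proteases. Cx3cl1, or fractalkine, captures CX3CR1-bearing monocytes and natural killer cells, and Cxcl16 binds CXCR6 on natural killer T cells that patrol the sinusoid. Cx3cl1 (chr8:97295909-97306323 of mm9) gave 18.9, 10.6 and 7.38 CPM in young replicates 1 to 3 against 47.2, 45.4 and 127 CPM at 127, 131 and 136 weeks. Each aged sample exceeded each young sample, and the 127- and 131-week samples were nearly equal. The log2 fold change of 2.57 (standard error 0.52, edgeR, adjusted p = 0.193) had the smallest p of the 10 ligands, and stayed between 1.92 and 3.03 when each sample was left out in turn. Its difference was also alike in the library clusters, at 2.34 and 2.53 on the log2(CPM + 1) scale, and unlike Cxcl1, Cxcl2 and Cxcl10 it was lowest in young replicate 3. Cxcl16 (chr11:70267485-70273486 of mm9, minus strand) was the ligand that ran the other way, at 299.9, 267 and 385 CPM in the young samples and at 257, 271 and 175 CPM at 127, 131 and 136 weeks. The 131-week sample lay just above young replicate 2, so the groups overlapped, and the log2 fold change was -0.44 (standard error 0.22, edgeR, adjusted p = 0.478). Between all 6 leave-1-out fits it ranged from -0.56 to -0.26. Of the 75-base stretches of Cxcl16 transcripts 18.1% occur on the opposite strand in Zmynd15, whose own CPM of 85.3, 77.4 and 154 in the young and 108, 91.1 and 55.8 in the aged samples ranked highest in young replicate 3 and lowest at 136 weeks, as Cxcl16 did. Without strand, reads from these shared stretches cannot be assigned to either gene.

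Cxcl12 and Cxcl13 are counted as homeostatic chemokines, Cxcl12 for its role in retaining CXCR4-bearing progenitors and Cxcl13 for guiding CXCR5-bearing B cells into follicles. Cxcl12 (chr6:117118553-117131385 of mm9) gave 104, 92.2 and 23.1 CPM in young replicates 1 to 3 against 70.1, 41.1 and 303 CPM at 127, 131 and 136 weeks. The 136-week sample was far above the young samples, and the other aged samples lay inside the young range. The log2 fold change was 0.92 (standard error 0.81, edgeR, adjusted p = 0.711) and turned to -0.40 without the 136-week sample. The order of the samples was close to that of the summed CPM of 11 stellate and mural cell markers, which was 450.3, 373 and 135 in the young samples and 457, 235 and 723 at 127, 131 and 136 weeks, the lowest in young replicate 3 and the highest at 136 weeks for both. Reln made up much of that sum, at 69.9 to 181 CPM in young and 109 to 495 CPM in aged samples, and lymphatic ECs also express it. Without Reln, left out after the values were seen, the sum was highest in young replicate 1 and not at 136 weeks. Dcn, the next most abundant marker, was at 135.6, 81.0 and 16.6 CPM in the young samples. At 127, 131 and 136 weeks Dcn was at 68.2, 46.9 and 92.4 CPM. Of the 11 markers 6 were higher and 5 lower. Lrat, the defining stellate cell enzyme, stood at 4.51 to 23.6 CPM in young and at 1.67 to 4.18 CPM in aged samples. The part of stellate and mural cells in the Cxcl12 values was not tested. Cxcl13 (chr5:96385945-96390086 of mm9) was nearly absent outside 1 sample, with 9, 5 and 16 counts in the young samples and 110, 2 and 2860 counts at 127, 131 and 136 weeks, or 0.335, 0.226, 0.505, 3.78, 0.0778 and 116 CPM. Its log2 fold change of 6.76 (standard error 2.13, edgeR, adjusted p = 0.301) was the largest of the 10 ligands and was 2.42 without the 136-week sample, and the 131-week sample, below 3 counts, lay under all young samples.

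**Figure D4:**
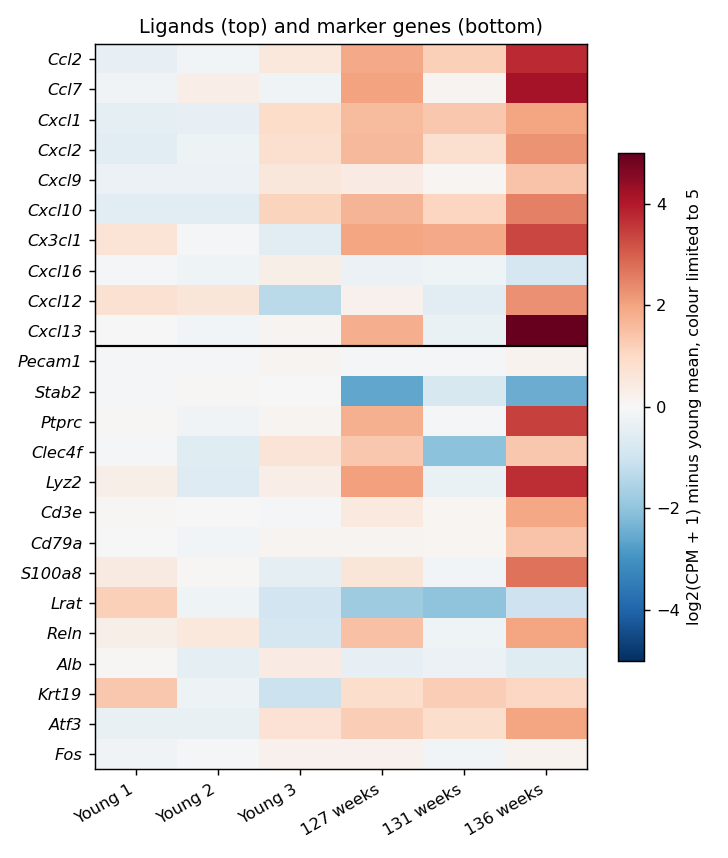
Difference of log2(CPM + 1) from the young mean, by colour, for the 10 ligands (above the line) and for marker genes of ECs, leukocytes, stellate cells, hepatocytes, cholangiocytes and the dissociation response (below). The 136-week column is the reddest for most ligands and for Ptprc and Lyz2, with 6.44 for Cxcl13 drawn at the limit of 5, while the 131-week column is near 0 for Ccl7, Cxcl9 and Ptprc.

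The markers of other cells were set beside the ligands as lists. Of 7 pan-leukocyte markers 6 were higher in aged ECs and 6 were highest at 136 weeks. Their summed CPM was 421 to 447 in young and 298 to 518 in aged samples, most of it Arhgdib and Lcp1, and the other 5 summed to 13.3 to 21.7 CPM in young samples and to 43.7, 15.7 and 174 CPM at 127, 131 and 136 weeks. Of 12 macrophage and Kupffer cell markers 8 were higher, with a sum of 128 to 142 CPM in young samples and of 242, 40.8 and 558 at 127, 131 and 136 weeks, and Clec4f, which defines Kupffer cells, was at 7.85 to 19.9 CPM in young and at 33.0, 2.18 and 32.8 CPM in the aged samples. Of 9 tested T and NK cell markers 7 reached the filter in aged samples only (sum of the list 8.0004 to 9.87 CPM in young and 9.80 to 41.3 CPM in aged samples), with Cd3e, part of the T cell receptor complex, at 0 to 0.0744 CPM in young and 0.117 to 3.00 CPM in aged samples. Of 4 tested B cell markers 3 reached the filter in aged samples only (sum of the list 0.946 to 1.23 against 0.739 to 8.49 CPM), with Cd79a at 0.451 to 0.757 CPM in young and 0.700 to 3.25 CPM in aged samples, and Pax5 was at 0 in all samples. Neutrophil markers were higher for 5 of 5, with 1 that reached the filter in aged samples only (3.66 to 6.70 against 6.77 to 36.1 CPM), with S100a8 at 0.284 to 1.45 CPM in young and 0.661 to 11.0 CPM in aged samples. Among dendritic cell markers 4 of 5 were higher, with 1 that reached the filter in aged samples only. Zbtb46 made up most of the sum (95.9 to 115 against 76.5 to 111 CPM), and the other 4 summed to 0.226 to 2.59 CPM in young samples and to 1.72, 1.67 and 8.32 CPM at 127, 131 and 136 weeks. The counts of higher genes were, among cholangiocyte markers 5 of 5 (88.1 to 105 against 189 to 237 CPM), among platelet markers 2 of 5 (18.5 to 26.9 against 18.8 to 22.4 CPM) and among hepatocyte markers 1 of 11 (260.03 to 342 against 201 to 329.6 CPM). The 1 was Trf, and without it the hepatocyte sum was 125 to 198 CPM in young and 86.4 to 113 CPM in aged samples. These partial sums were chosen after the values were seen. Most of the cholangiocyte sum was Spp1, at 77.4 to 96.2 CPM in young and 161 to 206 CPM in aged samples. Without Spp1 the cholangiocyte sums of the ages overlapped, and so did Krt19, at 1.89 to 14.5 CPM in young and 10.5 to 13.6 CPM in aged samples. Of the 13 EC markers 9 were lower, and the sum of the 13 was 25206 to 27350 CPM in young and 14371 to 20002 CPM in aged samples. These markers were not alike, with log2 fold changes of -1.70 for Stab2, -1.46 for Clec4g and -1.31 for Oit3. Those of Pecam1, Erg, Tie1 and Cdh5 were 0.015, 0.028, -0.16 and -0.21, and that of Lyve1 was 0.58. Of the 12 dissociation response genes 11 were higher, with a sum of 21754 to 25149 CPM in young and 24914 to 32714 CPM in aged samples, and Atf3, picked after its values were seen, was at 457, 449 and 981 CPM in the young and 1378, 1088 and 2278 CPM in the aged samples, with young replicate 3 the highest young sample as for Cxcl1, Cxcl2 and Cxcl10. Other genes of that list differed from Atf3. Fos and Jun were also highest in young replicate 3 among the young samples, but Ier2, Hspa1a, Hspa1b, Dusp1, Nr4a1 and Zfp36 were lowest there. Fos, the defining gene of the list, had a log2 fold change of 0.07 (standard error 0.22, edgeR, adjusted p = 0.936). None of these lists was tested as a source of the ligand transcripts.

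The rest of the chemokine family was sparse in these cells. Of 30 other chemokine ligands 19 passed the filter and 6 had 0 counts in every sample, namely Ccl1, Ccl21a, Ccl21b, Ccl21c, Ccl26 and Cxcl3. Of the 19, 4 reached the filter in aged samples only and 2 in young samples only, which favours a difference in those genes. With edgeR 0 passed the adjusted threshold and 2 passed the same limits upwards without adjustment, against 5.43% of all genes. Both are among the 4 that reached the filter in aged samples only. These were Ccl5, an attractant of lymphocytes, at 0.372, 0.135 and 0.252 CPM in the young and 4.401, 0.544 and 22.9 CPM in the aged samples, and Ccl8, which draws monocytes, with 0 to 0.158 CPM in the young and 0.275, 0 and 8.24 CPM in the aged samples. The highest mean FPKM of this list over all 6 samples belonged to Ccl5, the platelet chemokine Pf4 and the macrophage chemokine Ccl4, at 14.1, 12.9 and 11.5, where the place of Ccl5 rests on the 136-week sample. In young samples Ccl5 averaged 0.253 CPM.

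The signalling receptors of the 10 ligands, which are leukocyte genes for the most part, were sparse. Of the 10, 3 (Ccr3, Cx3cr1 and Cxcr6) reached the filter in aged samples only, which favours a higher aged value in them. The summed CPM of the 10 was 5.24 to 7.85 in young samples and 8.05, 9.57 and 35.8 at 127, 131 and 136 weeks. Cxcr4, the receptor of Cxcl12, had an unadjusted p below 0.05 at 0.379 to 0.632 CPM in young and 0.688 to 3.49 CPM in aged samples (log2 fold change 1.96, standard error 0.69, edgeR, adjusted p = 0.333). Atypical receptors, which do not signal through G proteins, were more abundant per length. Their mean over all samples was 81.1 FPKM for Ackr2, 61.1 for Ackr3 and 60.3 for Ccrl2, against 1.07 for Cxcr3, 0.927 for Cxcr2 and 0.722 for Cxcr4. Of 5 atypical receptors 3 were higher and 2 lower. Ackr2, a scavenger of inflammatory CC chemokines including Ccl2 and Ccl7, averaged 262 ± 64.7 CPM when young and 204 ± 21.0 CPM when aged (SD, n = 3 each, edgeR, adjusted p = 0.533). Ackr3, a scavenger of Cxcl12, was at 82.8, 96.4 and 52.3 CPM in the young samples and at 143, 62.1 and 261 CPM at 127, 131 and 136 weeks (log2 fold change 1.01, standard error 0.49, edgeR, adjusted p = 0.452), with its lowest value in young replicate 3 and its highest at 136 weeks, as for Cxcl12.

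Among 15 genes that cleave or present chemokines 8 were higher and 7 lower (median log2 fold change 0.026), and 2 had an unadjusted p below 0.05 with a log2 fold change below -1, against 1.19% of all genes. Dpp4, or CD26, a peptidase that trims the amino terminus of Cxcl9, Cxcl10 and Cxcl12, was at 1528, 1552 and 1441 CPM in the young samples and at 480.4, 943 and 332 CPM at 127, 131 and 136 weeks. All aged samples were below all young samples, with a log2 fold change of -1.37 (standard error 0.37, edgeR, adjusted p = 0.256). The heparan sulfate proteoglycan Gpc1 had a log2 fold change of -1.33 (standard error 0.53, edgeR, adjusted p = 0.371). Adam10, a protease that sheds Cx3cl1 and Cxcl16, averaged 329 ± 70.6 CPM when young and 339.7 ± 18.6 CPM when aged (SD, n = 3 each, edgeR, adjusted p = 0.954).

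NF-kB and interferon-gamma genes, which act upstream of several ligands or are induced with them, were counted in the same way. Of 16 NF-kB targets and feedback genes 15 were higher (median log2 fold change 0.64), 7 had an unadjusted p below 0.05 with a log2 fold change above 1 (5.43% of all genes), and in 7 the aged samples lay above the young samples (9.62% of all genes). Sele and Selp, the endothelial selectins, had log2 fold changes of 2.59 and 1.37 (standard errors 0.33 and 0.15, edgeR, adjusted p = 0.137 and 0.0861). Tnfaip3, which encodes the feedback inhibitor A20, was at 59.9, 83.0 and 99.9 CPM in the young samples and at 263, 237 and 721 CPM at 127, 131 and 136 weeks (log2 fold change 2.33, standard error 0.46, edgeR, adjusted p = 0.194). Of 17 interferon-gamma response genes 16 were higher (median log2 fold change 0.51) and 3, Irf1, Irgm1 and Ciita, had such a p and fold change (5.43% of all genes). In only 2 of the 17 did the aged samples lie above the young samples (9.62% of all genes). Iigp1, an interferon-inducible GTPase, showed the overlap seen in Cxcl9 and Cxcl10, at 413, 443 and 719 CPM in the young samples and at 986, 502 and 1372 CPM at 127, 131 and 136 weeks.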

How the data were processed

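RNA of CD31+CD45- liver cells from 3 young and 3 aged samples was read in 75-base single-end mode. The authors called bases with CASAVA 1.8.2, mapped reads to mm9 with TopHat 2.1.0 and deposited whole-number read counts per gene symbol, together with FPKM values from Cuffnorm 2.2.1. The counting program, annotation and strand setting are not given in the sources used here, so genes that overlap on opposite strands are uncertain. A few symbols that a spreadsheet turned into dates occur more than once.

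Counts were filtered (0.5 CPM or more in 1 sample or more), normalized by TMM and tested with the quasi-likelihood test of edgeR 4.0.16 in R 4.3.3 over 14612 genes, with Benjamini-Hochberg adjustment. Calls were made at an adjusted p of 0.05 combined with an absolute log2 fold change over 1. The standard error was derived from the fold change and F, as log2 fold change over root F. At 3 counts a gene stands at 0.0946 to 0.135 CPM, a floor for counting error only, since reads lack molecular identifiers. Replicates differed beyond sampling noise (chi-square over degrees of freedom 17.3 or more), so each counts as 1 sample. For ratios a two-sided exact permutation test was used, which with 3 against 3 samples cannot go below p = 0.1. DESeq2 1.42.0, limma 3.58.1, other normalizations and filters, a library cluster term and leaving out each sample served as alternatives. The test was checked on simulated data.

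The members and lists were chosen with earlier results of these data known. Genes named are the 10 ligands, genes of each list past the same limits without adjustment (at most 6), those with the highest FPKM, and defining markers. A gene named outside this rule was chosen after its values were seen, which holds for Lyz2, Reln, Dcn, Spp1, Zmynd15, Art3, Atf3, Arhgdib, Lcp1, Zbtb46, Trf, Ccr3, Cx3cr1 and Cxcr6 and for the ratios of neighbouring genes. The same holds for Clec4g, Oit3, Erg, Tie1, Cdh5, Lyve1, Jun, Ier2, Hspa1a, Hspa1b, Dusp1, Nr4a1 and Zfp36. Positions are from GENCODE M1 on NCBIM37 (mm9), promoters from RefSeq (GRCm38.p6), and motifs were chosen with the values known.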

Additional observations from a re-analysis of the deposited data

How the results depend on the processing

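The direction of 9 ligands held under all 17 alternatives run on each. The exception was Cxcl12, with a log2 fold change of 0.92 in the fit of all samples, -0.011 in limma-voom with sample weights and -0.395 without the 136-week sample, and a range of -0.395 to 1.35 when each sample was left out. Of 170 values of a ligand under an alternative, 162 were counted as keeping their direction and their side of an adjusted p of 0.05. Another 6 passed it, all with DESeq2. The 162 include Cxcl13 with DESeq2, which kept its direction but had no adjusted p. The count of ligands past the threshold was 0 upwards in edgeR, 6 with DESeq2 and 7 at an unadjusted p. The counts over all genes, 0 higher and 0 lower in edgeR, were 395 and 77 with DESeq2, 793 and 174 at an unadjusted p, 13 and 2 with limma-voom, 3 and 1 with a filter of at least 1 count, and 1 and 1 with a library cluster term, and for higher genes 0 to 1 when each sample was left out, the 1 gene without the 131-week sample. The count of ligands without overlap, 4, ran from 4 to 8 when each sample was left out, was 8 without the 131-week sample, and was 3 at plain library size. The causes were not tested. No paired analysis was possible because the aged samples carry no replicate number. Ccl7, Cxcl2 and Cxcl13 rest on few counts in the young samples, and Cxcl13 at 131 weeks stands below 3 counts.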

Other observations

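Cxcl12 was the ligand whose change differed most between the deposited tables. Its FPKM divided by its CPM was 0.348, 0.302 and 0.328 in the young samples and 0.251, 0.310 and 0.213 at 127, 131 and 136 weeks. For Cxcl10 the same quotient stayed between 1.07 and 1.08, and for Cxcl2 it ran from 0.903 to 1.10. The aged mean over the young mean of Cxcl12 was thus 1.89 in CPM and 1.32 in FPKM. Cxcl12 has 4 transcripts in the GENCODE annotation of mm9, but so has Cx3cl1, whose quotient stayed between 0.326 and 0.332. The reason for the difference was not tested.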
